A study of Mus musculus with 12 samples.

Results

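The data described here are the reads that fell on 1103 short, single-exon gene intervals in chromatin immunoprecipitated with a nonspecific IgG antibody from mpkCCD cells. These cells are an immortalized mouse line derived from principal cells of the renal collecting duct, and clone 11 was used, so the line is 1 clone. Members were chosen by gene structure alone: an autosomal RefSeq protein-coding transcript with 1 block, a coding sequence that fills the whole interval, and a length of 850 to 1100 bp. The rule found 1181 of the 33062 intervals shared by the 6 IgG libraries. Some intervals are listed under more than 1 transcript, and 1103 remained after each position was taken once. By symbol, 832 members were odorant receptors, 203 vomeronasal type 1 receptors, 34 bitter taste receptors and 13 trace amine receptors. A further 3 were formyl peptide receptors and 3 were Mas-related receptors. The other 15 included genes of unrelated function, such as the transcription factor genes Mafa and Foxe3, the fatty acid receptor gene Ffar1 and the bile acid receptor gene Gpbar1. Members without a symbol were counted there too.

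The study compared dDAVP, a vasopressin analog selective for the V2 receptor, with its vehicle. Cells were grown on permeable supports in medium with 2% dialyzed serum, kept without serum for the last 24 h, and exposed throughout to 0.1 nM dDAVP or to vehicle. Passages 6 to 10 were used, and both groups otherwise had the same handling. Each group had 3 IgG libraries, numbered experiments 1 to 3, and the 6 libraries made with an RNA polymerase II antibody were not analysed here. An IgG library holds DNA recovered without a specific target, so a read on an odorant receptor interval counts genomic DNA and not transcription. Gene markers therefore cannot type the cells in these data.

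Odorant receptors are G protein-coupled receptors of olfactory sensory neurons in the nose, where each neuron expresses a single allele of a single receptor gene. Vomeronasal type 1 receptors serve pheromone sensing in the vomeronasal organ, bitter taste receptors (Tas2r) sit in taste cells, and trace amine receptors (Taar) detect volatile amines in the nose. Their coding sequences usually lie in 1 exon, and the genes stand in long tandem clusters in AT-rich, gene-poor DNA. In most tissues, including the kidney, nearly all of them are silent.

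Of the 1103 members, 1099 (99.6%) read as an open frame from a start codon to a stop codon in the GRCm38.p6 reference, whose chromosomes have mm10 coordinates. The 10-base word found in more odorant members than any other, CCCATGTACT, lies over a conserved stretch at the inner end of the second membrane helix of odorant receptors. It was searched for on both strands and found in 348 of 832 odorant members (41.8%), each time on the coding strand and in 1 reading frame, at a median start of base 172. It was found in 1 of 203 vomeronasal members, on the other strand, and in 0 of 34 bitter taste and 0 of 13 trace amine members. Of 2101 windows of the same lengths 5 kb from a member, free of any interval, 8 held it (0.381%), as did 11 of 1890 other intervals of at most 3 kb that belong to no odorant receptor gene (0.582%). The word was picked from the odorant members themselves, so its share among them is a description, and a match marks no binding site.

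The stretches below show members that differ in GC content, copies or read counts. Whether the sequence sets the read counts was not tested. Each line gives bases 101 to 250 of the coding strand, except Vmn1r1, which gives bases 1 to 300. Capitals mark the 10-base word in Olfr283 and Olfr95 and the start codon in Vmn1r1. Olfr283 and Olfr95 are GC-rich members that took many reads in dDAVP experiment 3, while Olfr209 and Tas2r129 have less GC than the median member. Vmn1r1 had no read in any library. Vmn1r111 is shown because the whole interval occurs 3 times without a difference on chromosome 7.
Olfr283, chr15:98378859-98379008, minus strand: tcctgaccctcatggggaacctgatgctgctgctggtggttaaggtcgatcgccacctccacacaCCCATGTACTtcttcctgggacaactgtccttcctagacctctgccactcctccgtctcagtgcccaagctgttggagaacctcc
Olfr95, chr17:37211602-37211751, minus strand: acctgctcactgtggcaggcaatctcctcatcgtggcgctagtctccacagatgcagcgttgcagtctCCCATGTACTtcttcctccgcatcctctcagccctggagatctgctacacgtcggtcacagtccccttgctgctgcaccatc
Olfr209, chr16:59361967-59362116, minus strand: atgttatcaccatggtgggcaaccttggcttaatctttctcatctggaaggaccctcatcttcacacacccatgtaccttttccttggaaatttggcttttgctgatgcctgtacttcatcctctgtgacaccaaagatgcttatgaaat
Tas2r129, chr6:132951202-132951351, plus strand: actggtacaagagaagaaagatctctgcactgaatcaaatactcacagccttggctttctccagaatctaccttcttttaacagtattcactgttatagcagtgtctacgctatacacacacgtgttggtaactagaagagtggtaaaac
Vmn1r1, chr1:182157799-182158098, minus strand: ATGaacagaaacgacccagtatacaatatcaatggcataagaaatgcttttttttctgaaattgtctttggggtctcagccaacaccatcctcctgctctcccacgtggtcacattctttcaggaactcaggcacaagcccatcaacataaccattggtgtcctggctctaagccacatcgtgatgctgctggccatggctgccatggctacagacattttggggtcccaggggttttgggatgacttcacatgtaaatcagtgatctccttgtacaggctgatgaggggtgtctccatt
Vmn1r111, chr7:21545841-21545990, minus strand: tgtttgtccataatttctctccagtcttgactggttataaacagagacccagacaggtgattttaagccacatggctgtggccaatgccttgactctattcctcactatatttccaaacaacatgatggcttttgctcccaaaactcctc
Over these stretches GC content was 57.3% in Olfr283 and 58% in Olfr95, against 43.3% in Olfr209 and 40% in Tas2r129. Over the whole interval it was 53.5% and 58.1%, against 39.98% and 38.6%.

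The deposited counts summed to between 10588927 and 19748658 reads per library over the shared intervals. Density below is reads per kb of interval per 1000000 of those reads. Experiments 1 and 2 of each group agreed within about the sampling noise of their counts, with a chi-square of 1.02 per degree of freedom for dDAVP and 1.01 for vehicle, and were counted as 1 sample. This leaves 2 samples per group. Nothing in the labels says whether the libraries came from separate cultures, so the spread between them may be technical. The third dDAVP library stood apart from the other 5: against dDAVP experiment 1 its chi-square was 89 per degree of freedom over genes and 6.45 over the members. Values are therefore given with and without it. Without it the dDAVP group is 1 sample, experiments 1 and 2 together. Comparisons without it therefore have no dDAVP replicate and describe the size of a difference only.

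The members together took 12139, 11617 and 6099 reads in the dDAVP libraries, in the order of their experiment numbers, and 10272, 9562 and 20468 reads in the vehicle libraries. The median member had 11, 10 and 1 reads in the dDAVP libraries and 9, 8 and 18 in the vehicle libraries. At this depth single members are imprecise, and pooling by chromosome and by cluster carries the precision. In dDAVP experiment 3, 395 members (35.8%) had no read, whereas between 1 and 8 members had none in the other libraries.

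Pooled member density was 0.871, 0.875 and 0.464 with dDAVP and 0.883, 0.868 and 0.996 with vehicle. The third dDAVP library was the lowest and the third vehicle library the highest, and single libraries overlapped, since vehicle experiment 2 lay below the first 2 dDAVP libraries. With experiments 1 and 2 averaged, both dDAVP samples lay below both vehicle samples. The group means were 0.668 ± 0.289 for dDAVP and 0.936 ± 0.0855 for vehicle (SD, n = 2 samples each). The log2 difference of dDAVP against vehicle was -0.55, with a two-sided exact permutation p of 0.333, which is the smallest p that 2 against 2 samples can give. Without dDAVP experiment 3 the difference was -0.10.

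In 5 of the 6 libraries the receptor intervals carried more reads per kb than other protein-coding intervals. The other autosomal intervals, introns included, had a density of 0.664 to 0.677 in every library. The members were 1.31, 1.32 and 0.686 times that level in the dDAVP libraries and 1.33, 1.31 and 1.50 times in the vehicle libraries. All vehicle libraries and the first 2 dDAVP libraries lay above 1, and dDAVP experiment 3 lay below 1. The geometric mean over the 4 samples was 1.16, with an exact two-sided sign-flip p of 0.5. The mean was 1.38 without dDAVP experiment 3. A read of 50 bp is counted when it overlaps an interval by a single base, which favours short intervals, and adding 49 bp to each length gave 1.24 to 1.43 in the 5 libraries and 0.653 in dDAVP experiment 3.

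Members were also compared with their neighbours, without an addition to the lengths. For each cluster of members, density was divided by that of the other intervals within the cluster or within 500 kb of its ends. The median cluster lay at 1.43, 1.51 and 0.615 times its flanks in the dDAVP libraries and at 1.42, 1.40 and 1.56 times in the vehicle libraries. Of 38 clusters with at least 5 members and at least 50 reads per group, 36 lay above their flanks in each of the 5 libraries, and 13 did so in dDAVP experiment 3. The ratio ranged from 0.954 to 2.42 over clusters in the 5 libraries. Over the 4 samples the geometric mean of the median ratio was 1.19, with an exact two-sided sign-flip p of 0.625. It was 1.13 with 49 bp added to each length, and the clusters above their flanks were not counted that way. How often other short intervals lay above their flanks was not measured.

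Odorant receptor intervals outside the member rule gave a closer comparison, and 275 of them, with a median length of 1.106 kb, were measured. Whether length, introns or untranslated parts kept each of them out of the rule was not separated. Odorant members were 1.24, 1.28 and 1.26 times as dense in the dDAVP libraries and 1.25, 1.27 and 1.26 times in the vehicle libraries. In this pooled ratio dDAVP experiment 3 did not stand apart. By chromosome it did, with ratios from 0.632 on chromosome 4 to 3.72 on chromosome 19. The other 5 libraries lay between 0.922 and 1.49 on single chromosomes. All 4 samples lay above 1, for which the smallest exact two-sided sign-flip p is 0.125. With 49 bp added to each length the pooled ratio was 1.20 to 1.24. Without that addition, 10 or 11 of 11 chromosomes lay above 1 in each library. The members had the higher median GC content, 43.8% against 41.0%, and the part of GC content in the ratio was not tested.

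Among the receptor families, odorant members had a density of 0.911 to 1.05 in the 5 libraries and 0.521 in dDAVP experiment 3. Vomeronasal type 1 members were lower, at 0.681 to 0.795 and 0.105. Of the 203 vomeronasal members 116 lay on chromosome 7, and the family's density was 0.548 to 0.606 there, 0.815 to 1.03 on chromosome 6 and 0.842 to 0.987 on chromosome 13. Odorant members on chromosome 7 had 0.614 to 0.676, so both families were low on that chromosome. The 34 bitter taste members, 33 of them on chromosome 6, lay at 0.770 to 1.05 and at 0.166 in the third dDAVP library. The 13 trace amine members, in 1 cluster on chromosome 10, lay at 0.755 to 1.10 and at 1.37. The direction of dDAVP experiment 3 therefore differed between families, with median GC contents of 38.4% for bitter taste and 47.8% for trace amine members. Olfr1393, an odorant receptor described in kidney epithelium, had 11, 14 and 22 reads in the dDAVP libraries and 10, 5 and 18 in the vehicle libraries, and its groups overlapped.

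Member density followed the chromosome. Of 15 chromosomes with at least 5 members, chromosome 7, with 316 members, was at least 20% below the median chromosome in all 6 libraries, and none was at least 20% above. That is 6.67% of the chromosomes, and by the other protein-coding intervals 15.8% of 19 autosomes were as far below and 10.5% as far above. On chromosome 7 the members had 0.664, 0.631 and 0.509 times the median chromosome in the dDAVP libraries and 0.672, 0.657 and 0.645 times in the vehicle libraries. The other intervals of chromosome 7 lay at 0.614 to 0.748 in the 6 libraries. Leaving out dDAVP experiment 3, chromosomes 16 and 19 were also called, both above, which is 13.3% against 26.3% by the other intervals.

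Chromosome 19, with 56 members, had 1.51, 1.47 and 1.11 times the median chromosome in the dDAVP libraries and 1.64, 1.54 and 1.60 times in the vehicle libraries. Its other intervals lay at 1.38 to 1.42. Chromosome 16, with 30 members, had 1.42, 1.36 and 0.952 in the dDAVP libraries and 1.44, 1.45 and 1.65 in the vehicle libraries, against 1.06 to 1.27 for its other intervals. The 22 members of chromosome 4 lay at 0.632 to 0.859 in the 5 libraries, beside 0.644 to 0.653 for the other intervals. On chromosome 6, with 101 members, the members lay at 0.900 to 1.00 and the other intervals at 1.03 to 1.09. Across the 15 chromosomes the log2 levels of members and others had a Pearson correlation of 0.947, 0.950 and 0.474 in the dDAVP libraries and 0.806, 0.945 and 0.916 in the vehicle libraries. This is a description over chromosomes that share a library and its depth.

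**Figure D1:**
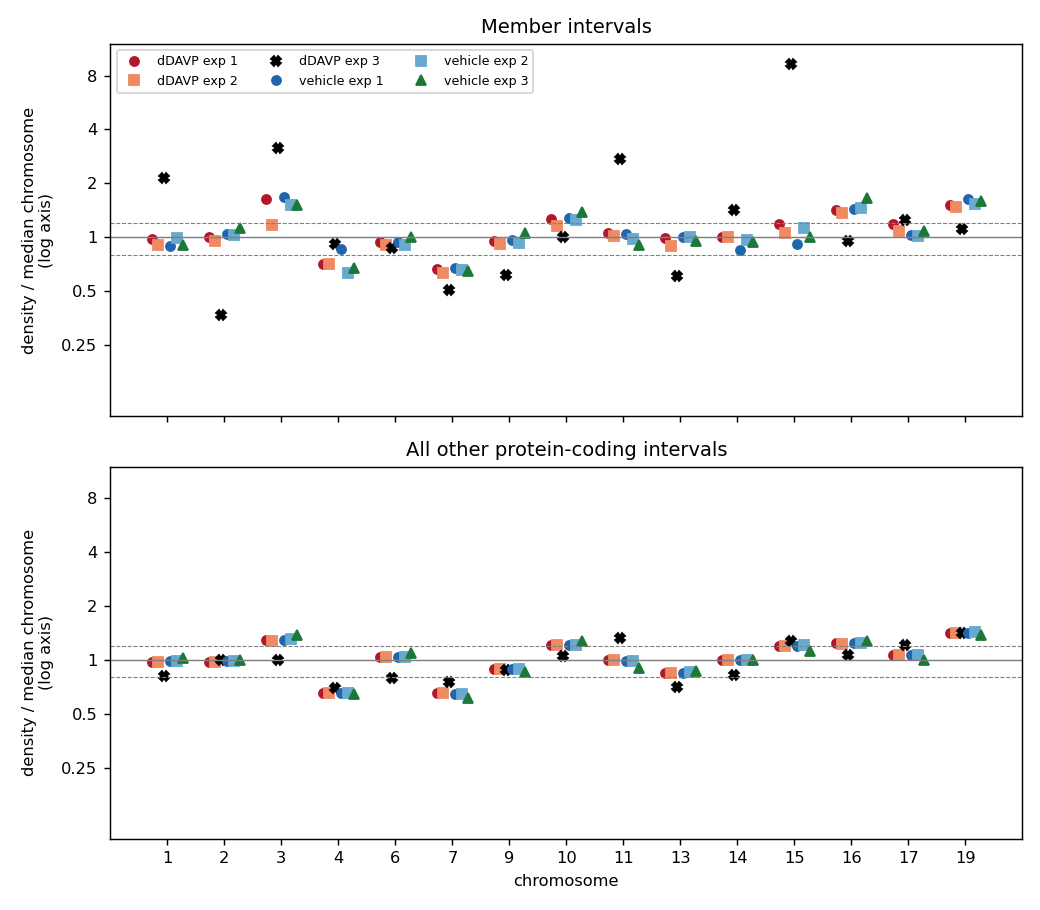
Density relative to the median chromosome (log axis) for the receptor members (top) and for all other protein-coding intervals (bottom) on the 15 chromosomes with at least 5 members, 1 point per IgG library. Dashed lines lie 20% from the median; chromosome 7 lies below them in both panels in all 6 libraries, and dDAVP experiment 3 (black crosses) scatters most among the members.

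Runs of members with gaps under 500 kb gave 79 clusters, of which 22 held 1 member and 38 met the limits on members and reads. These 38 held 1031 of the members. In all 6 libraries 2 runs (5.26%) were at least 20% above the median run and 3 (7.89%) at least 20% below. Among 978 windows of 2 Mb of other intervals the same rule called 7.06% above and 8.08% below, so the shares of receptor runs were near the background. Without dDAVP experiment 3 the rule called 4 runs above (10.5%) and 5 below (13.2%), against 18.0% and 16.2% of the windows.

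The run from Olfr1417 to Olfr1505 on chromosome 19 (chr19:11828077-13919972, 56 members, 55 of them odorant by symbol) was above in all 6 libraries. It took 972, 956 and 400 reads in the dDAVP libraries and 883, 795 and 1676 in the vehicle libraries, which is 1.53, 1.58 and 1.86 times the median run and 1.73, 1.70 and 1.59 times. The second such run, Olfr164 to Olfr171 on chromosome 16 (8 members), lay at 1.34 to 1.63 in the 5 libraries and at 2.15 in dDAVP experiment 3. Its neighbour on that chromosome, Olfr177 to Olfr209 (19 members), lay at 1.48 to 1.79 in the 5 libraries and at 0.936 in dDAVP experiment 3. On chromosome 10 the run Olfr9 to Olfr827 (56 members) was likewise above in the 5 libraries, at 1.30 to 1.49, while the Taar1 to Taar9 run of trace amine receptors on the same chromosome lay at 0.902 to 1.23. In dDAVP experiment 3 that order turned, with 0.806 for the odorant run and 4.26 for the Taar run.

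The 3 runs below in all 6 libraries were all on chromosome 7. The vomeronasal run Vmn1r91 to Vmn1r183 (chr7:20101158-24055691, 87 members, 85 of them vomeronasal by symbol) took 623, 545 and 45 reads in the dDAVP libraries and 505, 441 and 922 in the vehicle libraries. It lay at 0.573 to 0.648 times the median run in the 5 libraries and at 0.138 in dDAVP experiment 3. The vomeronasal run Vmn1r55 to Vmn1r64 (8 members) lay at 0.584 to 0.795 and had 1 read in dDAVP experiment 3. The odorant run Olfr309 to Olfr293 (12 members) lay at 0.569 to 0.713 and at 0.191. Without dDAVP experiment 3 the odorant runs Olfr545 to Olfr692 (98 members, 0.699 to 0.763) and Olfr522 to Olfr541 (16 members, 0.557 to 0.714) of chromosome 7 were also below. In the third dDAVP library they lay at 1.07 and 3.05.

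All 10 runs of chromosome 7 lay below the median run in each of the 5 libraries, as did 2 of the 28 runs elsewhere. Within chromosome 7 the chi-square per degree of freedom of the runs against 1 common density ranged from 1.01 to 2.58 in 4 of these libraries and reached 4.79 in vehicle experiment 3. It was nearest to 1, the value of counting noise, in vehicle experiment 1. Over the runs outside chromosome 7 the value was 10.0 to 24.9 in these libraries. In dDAVP experiment 3 the chromosome 7 runs ranged from 0 to 5.38 times the median run, with a chi-square of 160.5 per degree of freedom. The run at 0 was Vmn1r85 to Vmn1r89, whose 5 members held no read there.

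The largest run, Olfr987 to Olfr1273-ps on chromosome 2 (161 members over 4966 kb), took 1792, 1776 and 285 reads in the dDAVP libraries and 1599, 1459 and 3337 in the vehicle libraries. It lay at 0.988 to 1.10 times the median run in the 5 libraries and at 0.463 in dDAVP experiment 3. By the Euclidean distance of log2 relative density over the 6 libraries, the 5 runs most like it were Vmn1r4 to Vmn1r31 (distance 0.446), Fpr-rs6 to Vmn1r237 (0.521), Vmn1r33 to Vmn1r39 (0.613), Olfr1275 to Olfr1317 (0.650) and Olfr24 to Olfr873 (0.706). They lie on chromosomes 6, 17, 6, 2 and 9.

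**Figure D2:**
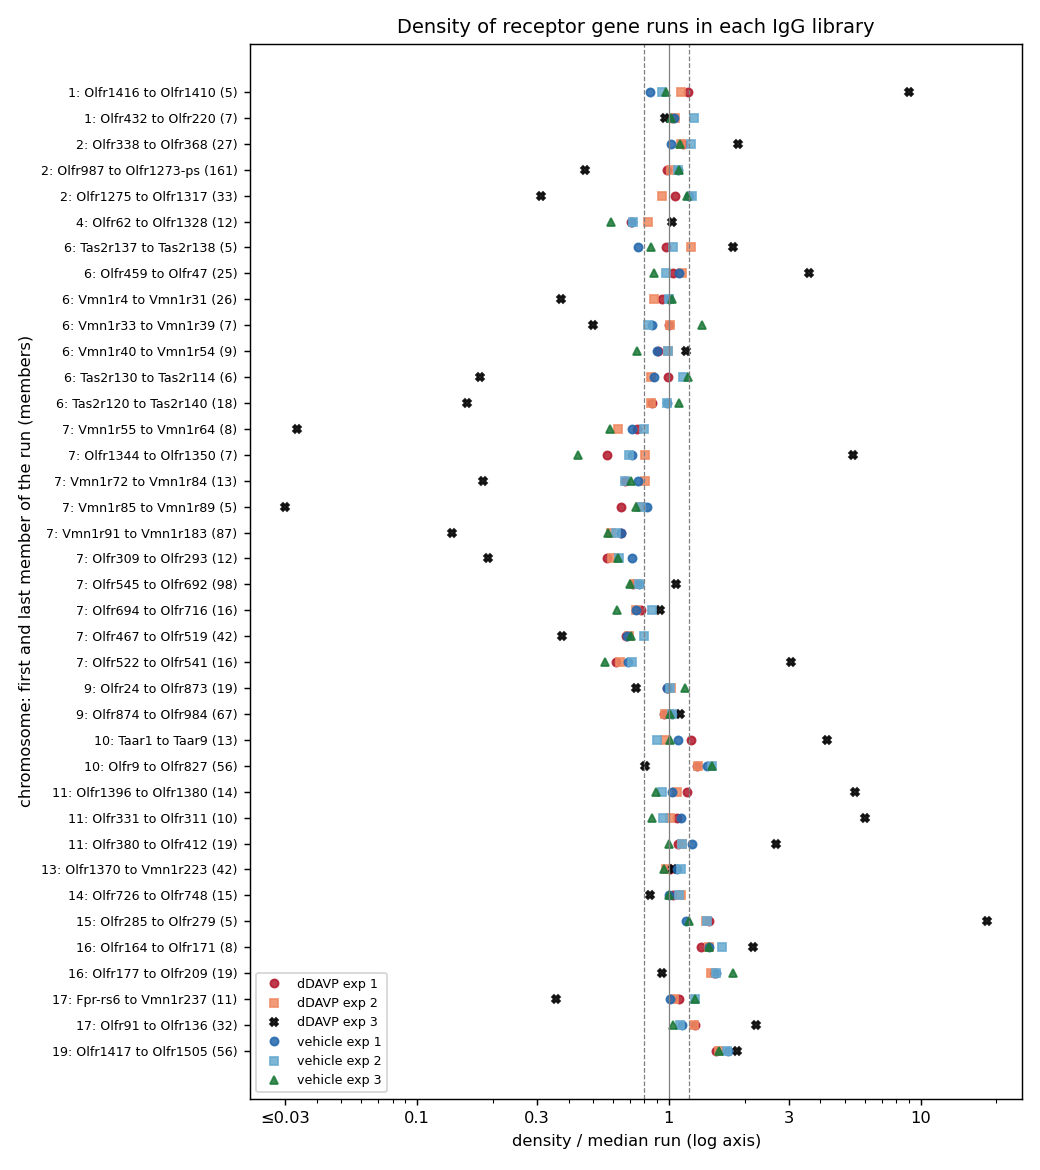
Density of each of the 38 receptor gene runs relative to the median run (log axis), 1 point per IgG library, ordered by chromosome and position, with the number of members in parentheses; the run with no read in dDAVP experiment 3 is drawn at the left edge. The 10 chromosome 7 runs lie below 1 in the 5 libraries, the chromosome 19 and chromosome 16 runs lie above, and dDAVP experiment 3 spreads from 0 to 18.4.

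GC content separated the third dDAVP library from the rest. The members' median GC content was 43% (5th to 95th percentile 38.5 to 51.7%), and the 5 kb on either side had a median of 37.2%. In 1085 members (98.4%) the interval was richer in GC than its surroundings. Members were split by GC content into 5 classes of equal size. From the lowest class to the highest, pooled density went from 0.107 to 1.62 in dDAVP experiment 3, a ratio of 15.2. The same ratio was 0.955 and 1.00 in the other dDAVP libraries and 0.882, 0.856 and 0.677 with vehicle. Vehicle experiment 3 thus leaned the other way, at 1.19 in the lowest class and 0.803 in the highest.

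The 5 odorant members of the run Olfr285 to Olfr279 on chromosome 15 had a mean GC content of 54.1% and lay at 1.17 to 1.45 times the median run in the 5 libraries and at 18.4 times in dDAVP experiment 3. At the other end, the bitter taste run Tas2r120 to Tas2r140 on chromosome 6 (18 members, 37.7% GC) lay at 0.851 to 1.10 and at 0.158. Across the 38 runs, Spearman's rho between GC content and density was 0.818 in dDAVP experiment 3 and between -0.405 and 0.133 in the 5 libraries, as a description of runs that share their library. Fewer distinct positions also marked the third dDAVP library: from the covered bases, distinct reads were estimated at 58.6% of the reads on members, against 95.03 and 95.8% in the other dDAVP libraries and 74.1, 74.4 and 97.1% in the vehicle libraries. The part of repeated reads in these results was not tested.

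**Figure D3:**
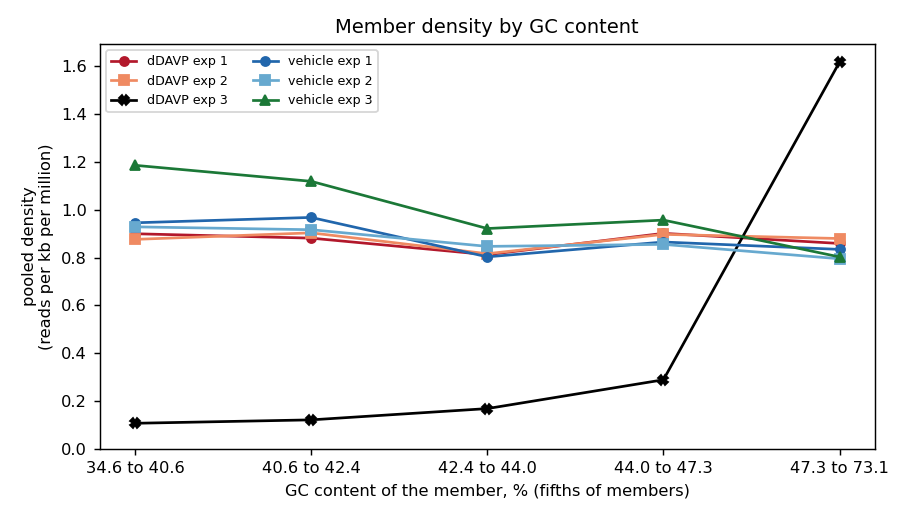
Pooled density (reads per kb per 1000000 reads) of the members in 5 classes by GC content, 1 line per IgG library. dDAVP experiment 3 goes from 0.107 in the lowest class to 1.62 in the highest, while the other 5 libraries stay between 0.795 and 1.19.

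Tandem receptor clusters hold near-copies, and a read that fits several copies cannot be placed at 1 of them. Of the 50-base words in a member a median of 89.7% occurred once in the reference. In 315 members every word was unique, in 53 no word was, and 64 had under 10% unique words, of which 60 lay on chromosome 7 and 58 were vomeronasal. On chromosome 7 the members with under 10% unique words had a density of 0.497 to 0.576 in the 5 libraries, and those with at least 90% had 0.596 to 0.657. Members with at least 90% unique words on the other chromosomes had 0.951 to 1.10, so chromosome 7 was also low among members that reads can place. How the aligner treated reads with several places is not given in the sources used here.

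There were 42 members that shared their whole sequence with another member, in 20 groups. The Vmn1r111 sequence printed above stood at 3 places of chromosome 7, starting at bases 21545170, 22027977 and 23250762. The first held 6, 7 and 1 reads in the dDAVP libraries and 6, 2 and 4 in the vehicle libraries. The second held 7, 4 and 1 and then 3, 6 and 6 reads, and the last held 8, 4 and 0 and then 5, 4 and 15. Over the libraries every copy thus held reads, and the counts differed between copies. The 5 members with the lowest mean density among the 1100 with at least 20 reads over all libraries were Vmn1r250, Vmn1r155, another Vmn1r111 interval, Vmn1r187 and Vmn1r258, all on chromosome 7 and all without a unique word. Vmn1r250 had 5, 2 and 0 reads in the dDAVP libraries and 2, 2 and 10 in the vehicle libraries. The 5 members with the highest mean density were Olfr285, Olfr95, Olfr283, Olfr1494 and Olfr1491, with 98.2 to 100% unique words and a GC content of 49.6 to 58.2%. Their means were set largely by dDAVP experiment 3, in which Olfr283 and Olfr95 each took 84 reads.

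Among single members, 1 had no read in any library. Vmn1r1, a vomeronasal receptor gene at chr1:182157178-182158098 (minus strand, 921 bp, GC content 48%), had 0 reads in all 6. Every 50-base word of it occurs once in the reference. From the density of the 9 other intervals within 500 kb, 6.6, 6.4 and 7.9 reads would fall on it in the dDAVP libraries and 5.6, 4.9 and 9.3 in the vehicle libraries, 40.8 in all. A count of 0 allows up to 3 reads, which is 7.4% of the level of its flanks. Such limits cover counting error only.

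For each member of a chromosome with at least 5 members, reads summed over the 5 libraries were divided by those expected from the density of all members of that chromosome. Of 1100 members, 1076 lay between 0.5 and 1.5. The lowest after Vmn1r1 were no receptors of smell or taste: Mafa, a transcription factor gene of pancreatic beta cells, at 0.123, and Foxe3, a transcription factor gene of the lens, at 0.177. Mafa and Foxe3 have a GC content of 71.0% and 73.1%. Mafa had 2, 0 and 15 reads in the dDAVP libraries and 1, 4 and 2 in the vehicle libraries. At the upper end Olfr285 had 2.08 times and Vmn1r174 2.00 times the expected reads, and Olfr209 on chromosome 16 had 1.92 times. Olfr209 took 31, 26 and 3 reads in the dDAVP libraries and 28, 17 and 66 in the vehicle libraries.

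**Figure D4:**
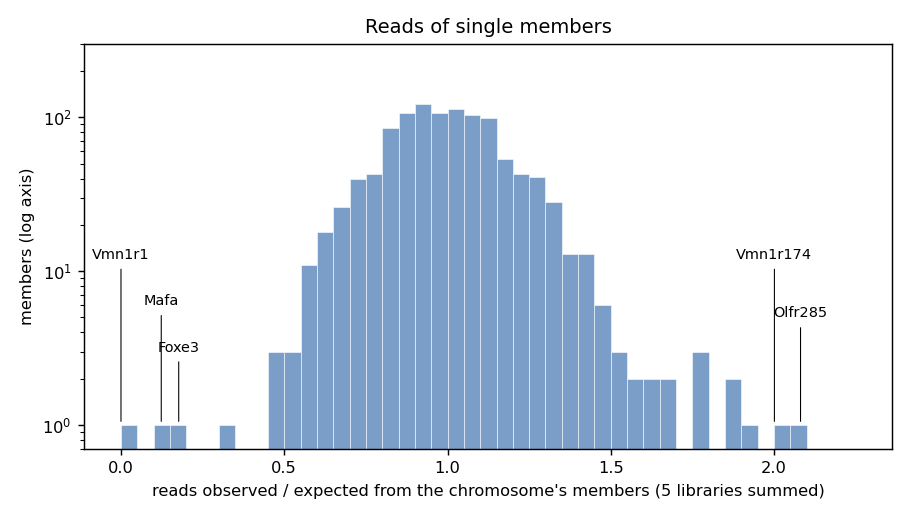
Histogram of 1100 members by reads observed over reads expected from the members of the same chromosome, summed over the 5 libraries without dDAVP experiment 3, with the number of members on a log axis. Most members lie between 0.5 and 1.5; Vmn1r1 is at 0, Mafa at 0.123 and Foxe3 at 0.177, and Olfr285 at 2.08 is the highest.

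The comparison of dDAVP with vehicle was fitted per interval with edgeR's quasi-likelihood test over the whole table. No interval of 30912 tested passed a Benjamini-Hochberg adjusted p of 0.05 (0%), and 236 had an unadjusted p under 0.05 (0.763%). DESeq2 called 0 as well, with 1117 at an unadjusted p under 0.05 (3.61%). Of the 1103 members, 1009 passed the filter on low counts. Their log2 values were above 0 in 158 and below 0 in 851, with a median of -0.83, against a median of 0.01 over all intervals tested. The members' median was -0.15 without dDAVP experiment 3.

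The members with the smallest p in each direction were Olfr95 and Olfr566. Olfr95, a GC-rich odorant receptor on chromosome 17, had 19, 22 and 84 reads with dDAVP and 4, 9 and 15 with vehicle. Its log2 difference was 2.24 ± 0.80 (SE), with an adjusted p of 0.619 by edgeR, and it was 1.15 without dDAVP experiment 3. Olfr566, an odorant receptor on chromosome 7, had 3, 1 and 0 reads with dDAVP and 11, 10 and 10 with vehicle. Its log2 difference was -3.03 ± 1.27 (SE), with an adjusted p of 0.619 by edgeR, and it was -2.29 without dDAVP experiment 3. The unadjusted p of Olfr566 was 0.0565. Of the 1009 members tested, 2 had an unadjusted p under 0.05, Olfr95 and Olfr283, both with higher values with dDAVP, beside 0.763% of all intervals.

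Runs carry more reads, and none was called either. With each run as 1 row beside every other interval, edgeR called 0 of 29945 rows (0%), and 270 (0.902%) had an unadjusted p under 0.05, none of them a receptor run. Of 79 runs 74 were tested, 24 with a log2 value above 0 and 50 below, with a median of -0.72 against 0.02 over all rows. Without dDAVP experiment 3 the median was -0.10, with 24 runs above 0 and 51 below. The largest run, Olfr987 to Olfr1273-ps, had a log2 difference of -1.07 ± 0.89 (SE; 95% interval -3.27 to 1.13), which became -0.25 without that library. The run Olfr285 to Olfr279 had 1.27 ± 0.66 (SE; 95% interval -0.35 to 2.90), which became 0.08. The intervals are wide, so a missed threshold does not show that the groups were alike.

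The log2 values of the treatment comparison differed by GC content. Members of at most 40% GC had a median of -1.10, with 0 of 154 above 0, and members of over 47% GC had a median of 0.16, with 131 of 217 above 0. Leaving that library out, the medians were -0.29 and 0.03.

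**Figure D5:**
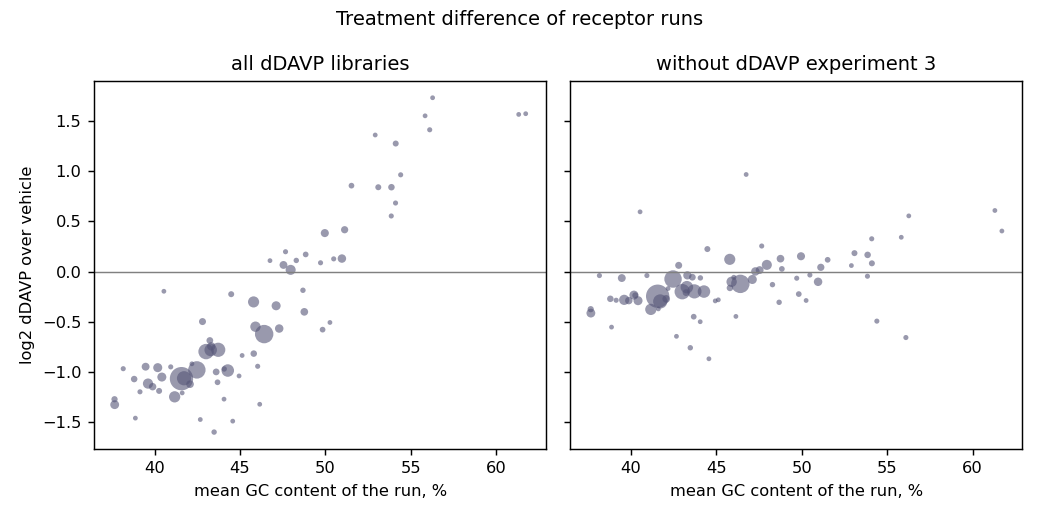
Log2 dDAVP over vehicle for each receptor run against its mean GC content, with all dDAVP libraries (left) and without dDAVP experiment 3 (right); point area grows with the number of members. On the left the values go from -1.60 for the run Mrgprb5 to Mrgprb3 to 1.73 for the single interval Krtap9-5, and the 18-member run Tas2r120 to Tas2r140 lies at -1.33; on the right that run lies at -0.41.

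Other genes of these sensory pathways were read for comparison. The list of transduction genes holds the olfactory G protein, cyclase and channel subunits, taste signalling genes and regulators of receptor choice, and 29 of 30 had an interval. None was called by edgeR, with 21 log2 values above 0 and 8 below and a median of 0.63. The median was 0.10 when dDAVP experiment 3 was left out, with 25 values above 0 and 4 below. By mean density over samples the highest were Calhm1, a taste cell channel gene on chromosome 19, and Rtp1 and Rtp2, odorant receptor transport genes on chromosome 16. The lowest were Cnga2, the olfactory channel gene on the X chromosome, Kdm1a, a histone demethylase gene on chromosome 4, and Emx2, a homeobox gene on chromosome 19. This order rested on dDAVP experiment 3. Over the other 3 samples the highest were Stoml3 (0.940), Slc24a4 (0.927) and Rtp1 (0.873), with Calhm1 at 0.701, and the lowest were Omp (0.227), Cnga2 (0.241) and Tas1r3 (0.271). Calhm1 had a density of 1.02, 0.773 and 3.30 in the dDAVP libraries and 0.427, 0.692 and 0.645 in the vehicle libraries, and Cnga2 had 0.244, 0.230 and 0.129 and 0.210, 0.206 and 0.279. All 123 multi-exon vomeronasal type 2 receptor genes had log2 values below 0, with a median of -0.89 and none called. With dDAVP experiment 3 left out the median was -0.22, with 117 values below 0 and 6 above. Their pooled density was 0.676 to 0.795 in the 5 libraries and 0.253 in dDAVP experiment 3, so these receptors with introns were low in that library too. Where known, their GC content ran from 31.8% (Vmn2r74) to 41.8% (Vmn2r55), below that of the median member. The part of GC content in their low density there was not tested. Of 12 principal cell genes, such as Aqp2, 11 were tested, with 8 values above 0, 3 below, a median of 0.56 and none called. Their median was 0.22 without dDAVP experiment 3. The gene not tested was Avpr2, with 5, 3 and 18 reads in the dDAVP libraries and 6, 1 and 3 in the vehicle libraries.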

How the data were processed

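Counts per interval were deposited by the authors and were not normalized, per the file headers and values: a value is how many reads touch a RefSeq interval between its ends, and 1 read adds to every interval it touches. The deposited fraction of bases with at least 1 read was used for the covered-base alternative and the estimate of distinct reads. Per the labels' protocols, chromatin cross-linked with 1.11% formaldehyde was sheared to about 300 bp, 200 to 400 bp fragments were selected, and 50-bp reads were mapped to mm10 with BWA. The tools SAMtools and bedtools also stand there, per the submitters' processing notes. For duplicate removal and for reads with several places, the treatment was not given in the sources used here.

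The members and lists were chosen with earlier results of these data known. One interval missing from 1 library was left out. Symbols for 99.3% of intervals came from RefSeq and GENCODE tables of GRCm38.p6. GC content, 50-base words and printed sequences came from the RefSeq genome of that build. Summed or averaged, experiments 1 and 2 of a group counted as 1 sample, because their chi-square per degree of freedom over genes with at least 40 reads was under 1.1. edgeR 4.0.16 in R 4.3.3 (TMM, filterByExpr, two-sided quasi-likelihood test, Benjamini-Hochberg at 0.05 over the whole table) was the main test, and DESeq2 1.42.0 an alternative. The comparison per interval was also run on simulated counts (33062 intervals, 2 samples per group). There edgeR recovered 49 of the 67 intervals given a 2-fold difference and 66 of the 67 given a 4-fold one. Another 12 calls fell on intervals without a difference. The real libraries spread widely, with a chi-square of 89 per degree of freedom between dDAVP experiments 1 and 3 over genes. Olfr95, at a log2 difference of 2.24 ± 0.80 (SE), was not called. The simulated recoveries therefore do not tell which differences the real counts could reveal. Named runs were those at least 20% from the median run in each library, the 3 largest and the 5 most like the largest; Olfr285 to Olfr279, Tas2r120 to Tas2r140, Taar1 to Taar9, Vmn1r85 to Vmn1r89 and Mrgprb5 to Mrgprb3 were named after their values were seen, and so was the interval Krtap9-5. Named members were the 5 highest and 5 lowest in mean density with at least 20 reads, those without reads, and the smallest treatment p in each direction; members at the ends of the observed over expected distribution were named after their values were seen. Members nearest the length limits were Foxe3 (867 bp, 2, 3, 2, 0, 1 and 1 reads in the libraries as ordered above) and Tdpoz3 (1098 bp, 25, 18, 30, 19, 16 and 24 reads), and just outside lay V1ra8 (840 bp, 8, 6, 1, 4, 3 and 17 reads) and Vmn1r199 (1104 bp, 13, 12, 5, 7, 7 and 26 reads).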

Additional observations from a re-analysis of the deposited data

How the results depend on the processing

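The count of runs at least 20% from the median run was 5 in all 6 libraries, 3 with a margin of 30%, and 9 when every deposited entry was counted, an alternative chosen after seeing the data. Leaving out 1 library at a time gave 5 to 9 runs, the highest without dDAVP experiment 3. The count of chromosomes was 1, became 2 with members of at least 90% unique 50-base words, and was 1 to 3 when 1 library was left out, with 2 without dDAVP experiment 2 and 3 without dDAVP experiment 3. The ratio of members to other intervals was 1.16 and ranged from 1.05 (other intervals of at most 3 kb) to 1.38 (without dDAVP experiment 3). The ratio to flanks was 1.19, with a range of 1.08 (without vehicle experiment 3) to 1.48 (without dDAVP experiment 3). The pooled log2 difference of dDAVP against vehicle stayed below 0, between -0.59 (named receptor families only) and -0.10. Only leaving out dDAVP experiment 3 moved it by over 1.5 times. No member and no run was called under any of the 12 interval and 18 run alternatives. Same-numbered libraries of the 2 groups did not deviate together (correlations of -0.35, -0.37 and -0.57 over 17872 genes). Deviations were taken from each group's own mean, and experiment 3 stood apart in both groups. These correlations therefore cannot decide whether the numbers pair libraries. With the experiment number as a replicate block, edgeR called 0 members and 0 runs. The members' median was then -1.31 and the runs' median -0.88. Of 74 runs tested with the block, 9 had an unadjusted edgeR p under 0.05, all lower with dDAVP, against 0 without it. Over all rows 245 of 29945 were under 0.05 with the block. Those 9 runs had an adjusted p of 0.904 by edgeR and a mean GC content of 37.7 to 44.3%. The pooled difference with the block was -0.55 with an exact p of 0.5. Scaling by library size alone moved the median of all intervals to 0.24, against which the members' median was -0.70. At a median of 1 to 18 reads per member, depth limits what single members can show, and the members' count passing the filter varied from 618 to 1102.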
